A study of Mus musculus with 15 samples.

Results

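A set of 9 genes of the tumour necrosis factor (TNF) receptor superfamily was followed in splenic CD4+CD25+ cells, the fraction in which regulatory T (Treg) cells are enriched. The genes were Tnfrsf4, Tnfrsf18, Tnfrsf9, Tnfrsf8, Cd27, Tnfrsf1b, Tnfrsf25, Tnfrsf1a and Fas, chosen as receptors known on Treg cells and found by gene symbol, and they are 9 of the 19938 genes that the array names. Each was measured by 1 probe set, and all 9 passed the filter on dim genes, a mean log2 signal above 4.96 (the middle of the means of all probe sets) in at least 1 genotype. All values are log2 signals, so a difference of 1 is a doubling, and changes are the first-named group minus the second. The samples were 15 single-colour Affymetrix whole-transcript arrays, 1 per RNA sample. They comprised 3 dKO arrays (Ikzf2-/-Ikzf4-/-, without Helios and Eos), 3 Ikzf4-/- arrays (without Eos), 3 Ikzf2-/- arrays (without Helios) and 6 wild-type (WT) arrays. Helios and Eos belong to the Ikaros family of zinc finger transcription factors, and both are found in Treg cells. The mice's strain, sex, age and allele design are not given in the labels, nor is any Cre driver, pooling of animals or treatment, and the cells of all groups shared the CD4+CD25+ sort from spleen.

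The arrays fall into 2 runs that were normalized apart. The dKO and Ikzf4-/- arrays belong to run 1 with WT 1 to 3, and the Ikzf2-/- arrays belong to run 2 with WT 4 to 6. The labels do not name the runs, and the division shows in the values: array pairs within run 1 had exactly equal log2 signals in 2286 probe sets on average, pairs within run 2 in 34.4, and pairs across the runs in 0.0741. Each knockout was therefore set against the WT arrays of its own run, and levels are not compared across runs. Since the labels do not tie the arrays to separate mice, every p-value here reflects only how far these arrays vary, and that variation may be technical.

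TNF receptors are membrane proteins with cysteine-rich repeats outside the cell, and most are engaged by ligands of the matching TNF superfamily that assemble as trimers. A first class recruits TRAF adaptors and feeds NF-kappaB, which favours survival, proliferation and cytokine responses, while a second carries a death domain that can also lead to caspase activation. Treg cells are known for high levels of several receptors of the first class, among them GITR (Tnfrsf18), OX40 (Tnfrsf4) and TNFR2 (Tnfrsf1b), which act as costimulatory receptors that sustain their number and activity. Each array measured a bulk cell sample, so fewer receptor-bearing cells and less receptor RNA per cell cannot be told apart.

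The sorted cells carried the markers of their label, and several arrays stood apart. All 15 Treg markers examined, Foxp3 and Il2ra included, exceeded the filter on all 15 arrays, and neither Foxp3 nor Il2ra passed the test in any comparison. The list also holds Ikzf2 and Ikzf4, the genes named in the genotypes, and the general T cell genes Cd4, Cd3e, Cd3g and Cd5. Its mean therefore includes the Ikzf2 and Ikzf4 signals. Ikzf2 averaged 9.47 ± 0.51 on the Ikzf2-/- arrays and 10.33 ± 0.07 on WT 4 to 6 (log2 signal, SD, n = 3 each; -0.86, limma adjusted p = 0.0885), and 10.29 ± 0.27 on the dKO arrays against 10.65 ± 0.17 on WT 1 to 3 (-0.37, adjusted p = 1). By array, Ikzf2 was at 10.06, 9.14 and 9.22 on Ikzf2-/- 1 to 3, so Ikzf2-/- 1 lay much nearer to WT 4 to 6. On dKO 1 to 3 it was at 10.11, 10.16 and 10.59, and dKO 3 lay within the range of WT 1 to 3 (10.46 to 10.76). Ikzf4 was not lower in Ikzf4-/- (8.18 ± 0.05, against 7.97 ± 0.12 on WT 1 to 3) or in dKO (8.13 ± 0.07). The deleted parts of both genes are not given in the sources used here, and a probe set outside the deletion checks nothing, so the groups are named as labelled. Ikzf2-/- 2 had a Treg marker mean of 9.29, below the 9.69 to 9.94 of the other run 2 arrays, and the lowest array weight, limma's measure of how closely an array follows its group (0.126, against 0.363 to 2.27). The B cell marker mean, over 11 genes, was 7.39 on Ikzf2-/- 3 and 6.55 on WT 1, against 4.42 to 5.65 on the other 13 arrays. Neutrophil markers were also highest on these 2 arrays (8.14 and 6.46, against 4.28 to 6.22). Of 9 macrophage and dendritic cell markers 5, Adgre1 among them, lay below the filter on all 15 arrays, but Cd68 exceeded it on all 15, Lyz2 on 14, Csf1r on 3 and Flt3 on 2. Of 5 CD8 T and NK cell markers Cd8a, Ncr1 and Klrb1c lay below it on all 15, and Cd8b1 and Eomes exceeded it on all 15.

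Over the whole set of receptors, loss of Helios, of Eos or of both left no member past the test. A member was called if its adjusted p in the limma fit over 10834 genes was below 0.05. In Ikzf2-/- against WT, 0 of 9 members were called, where 0.0646% of all tested genes were. In Ikzf4-/- against WT the counts were 0 of 9 and 0% of all genes, in dKO against WT 0 of 9 and 0.0646%, and in dKO against Ikzf4-/- 0 of 9 and 0.0277%. At an unadjusted p below 0.05, limma gave 2, 0, 2 and 2 members in that order, all of them lower in the group named first. The shares of all tested genes lower at that level were 5.34%, 0.978%, 1.91% and 1.69%, and the shares higher were 11%, 1.17%, 2.41% and 1.8%. Members whose arrays did not overlap numbered 2 lower in Ikzf2-/- against WT (of all genes 5.39% were lower in this way and 10.8% higher), 0 in Ikzf4-/- against WT (2.86% and 3.66%), 1 higher in dKO against WT (4.13% and 5.39%) and 2 lower in dKO against Ikzf4-/- (4.17% and 4.1%). Groups of 3 arrays cannot reach an exact permutation p below 0.1, so single members were read from the limma fit alone.

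What these arrays bound is the size of a change. The 95% intervals of the 9 members reached from 0.624-fold (Tnfrsf9) to 1.33-fold (Tnfrsf4) in Ikzf2-/- against WT, and from 0.668-fold (Tnfrsf9) to 1.40-fold (Tnfrsf8) in Ikzf4-/- against WT. They reached from 0.603-fold (Tnfrsf9) to 1.42-fold (Tnfrsf1b) in dKO against WT, and from 0.656-fold (Tnfrsf9) to 1.50-fold (Tnfrsf1b) in dKO against Ikzf4-/-. These intervals rest on 1 estimate of spread per gene, shared by all groups. The median SD of the members was 0.337 in Ikzf2-/-, against 0.101 to 0.134 in the other groups of arrays. Where a member varied more in Ikzf2-/-, its interval there can be too narrow, so these bounds are approximate. A missed threshold does not show that a receptor's level was the same.

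**Figure D1:**
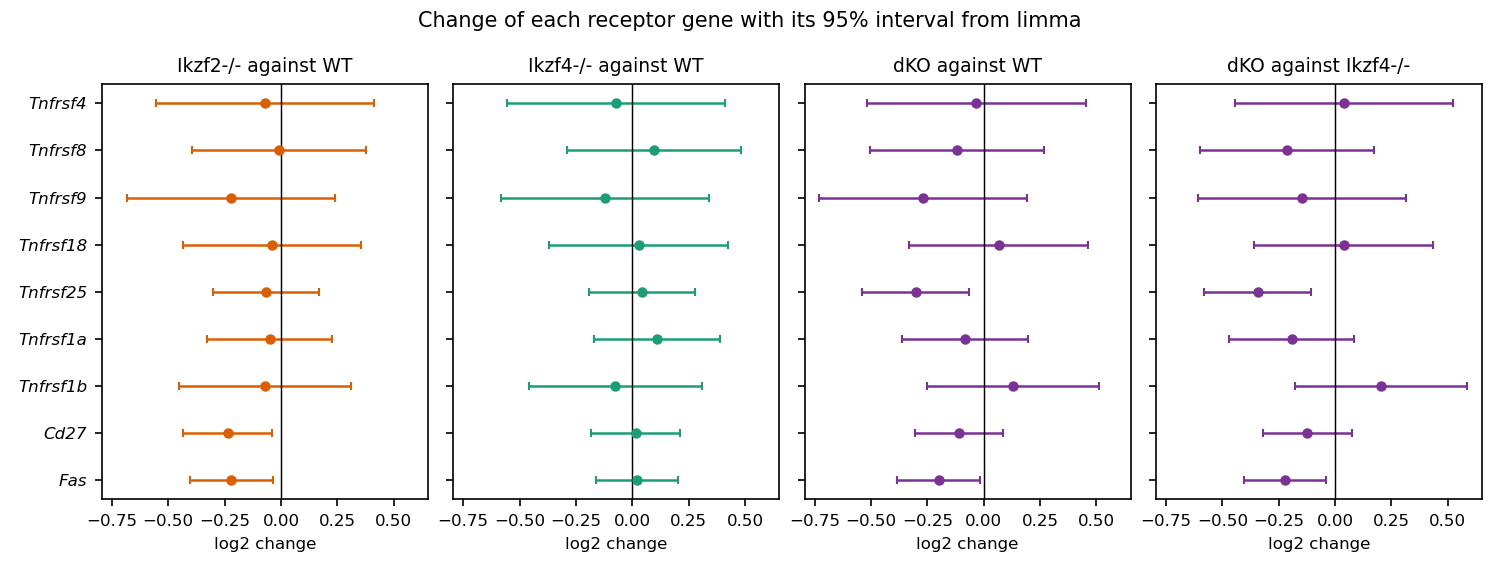
Log2 change of each of the 9 receptor genes (horizontal axis, points) with its 95% interval from limma (bars), in 1 panel for each comparison. Intervals that exclude 0 without adjustment belong to Cd27 and Fas in Ikzf2-/- against WT, and to Tnfrsf25 and Fas in both dKO comparisons. No member passed after adjustment.

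Tnfrsf4 encodes OX40, a costimulatory receptor that Treg cells carry at rest and that binds OX40 ligand. Its log2 signals were 10.79, 10.84 and 10.54 on the dKO arrays, 10.57, 10.98 and 10.50 on the Ikzf4-/- arrays, and 10.72, 10.83 and 10.72 on WT 1 to 3. All 3 groups overlapped, with WT the tightest. In run 2 the signals were 10.37, 9.22 and 10.13 on the Ikzf2-/- arrays and 10.06, 10.08 and 9.80 on WT 4 to 6. Ikzf2-/- 1 and 3 lay above every WT array of that run and Ikzf2-/- 2 lay below them all, so the mean change of -0.07 (SE 0.23) joined arrays that differed in direction. Without Ikzf2-/- 2 it was 0.27.

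Tnfrsf18, the gene of GITR, lies next to Tnfrsf4 on chromosome 4 with no protein-coding gene between them. It had 9.92, 9.73 and 9.98 on the dKO arrays, 9.75, 9.92 and 9.85 on the Ikzf4-/- arrays and 9.85, 9.89 and 9.70 on WT 1 to 3. These 3 groups overlapped almost wholly, and the changes were 0.07 in dKO and 0.03 in Ikzf4-/- against WT (SE 0.18 each). The Ikzf2-/- arrays had 9.66, 8.70 and 9.54, against 9.43, 9.33 and 9.26 on WT 4 to 6. Again Ikzf2-/- 1 and 3 lay above the WT arrays and Ikzf2-/- 2 lay below them, and the change of -0.04 (SE 0.18) was 0.26 without that array. For both neighbours the ranges of the groups overlapped in each run.

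Tnfrsf9 encodes 4-1BB, an activation-induced costimulatory receptor. Its signals were 9.19, 8.88 and 8.76 on the dKO arrays, 9.15, 9.42 and 8.71 on the Ikzf4-/- arrays and 9.19, 9.33 and 9.13 on WT 1 to 3. The arrays dKO 2 and dKO 3 and 1 Ikzf4-/- array lay below every WT array, and the means were 8.94 ± 0.22 in dKO, 9.09 ± 0.36 in Ikzf4-/- and 9.21 ± 0.10 in WT (SD, n = 3 each). The change of -0.27 in dKO against WT exceeded the SD of both those groups but not that of Ikzf4-/-, the ranges overlapped, and it did not pass (limma unadjusted p = 0.231, adjusted p = 1). In run 2 it had 8.48, 7.57 and 7.76 on the Ikzf2-/- arrays and 8.17, 8.27 and 8.02 on WT 4 to 6. Set against WT, Ikzf2-/- gave -0.22 and Ikzf4-/- -0.12 (SE 0.21 each). The Ikzf2-/- value rested on single arrays, being -0.04 without Ikzf2-/- 2, -0.13 without Ikzf2-/- 3, -0.49 without Ikzf2-/- 1 and 0.16 with array weights. Tnfrsf9 had the lowest interval bound of the 9 genes in all 4 comparisons.

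Tnfrsf8, the gene of CD30, borders Tnfrsf1b on chromosome 4, again with no protein-coding gene between. Its signals were 6.58, 6.66 and 6.40 on the dKO arrays, 6.43, 6.94 and 6.92 on the Ikzf4-/- arrays and 6.77, 6.36 and 6.87 on WT 1 to 3. In run 2 they were 6.10, 5.81 and 5.43 on the Ikzf2-/- arrays and 5.89, 5.79 and 5.68 on WT 4 to 6. Every pair of groups overlapped. Set against WT, Ikzf2-/- gave -0.01, Ikzf4-/- 0.10 and dKO -0.12 (SE 0.18 each), and its ligand gene Tnfsf8 is described below.

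Tnfrsf1b encodes TNFR2, the TNF receptor without a death domain. It had 8.84, 9.03 and 8.81 on the dKO arrays, 8.49, 9.04 and 8.54 on the Ikzf4-/- arrays and 8.72, 8.79 and 8.78 on WT 1 to 3. All 3 dKO arrays lay above all 3 WT arrays, as they did for 5.39% of tested genes, by a mean of 0.13 (SE 0.18, limma adjusted p = 1). The Ikzf4-/- arrays spanned both groups. The Ikzf2-/- arrays had 8.67, 8.02 and 8.57, against 8.64, 8.62 and 8.21 on WT 4 to 6, a change of -0.07 (SE 0.18). Their lowest array was again Ikzf2-/- 2, and the lowest WT array of the run was WT 6.

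Cd27 encodes the receptor of CD70, which naive and regulatory T cells carry. Together with Fas and Tnfrsf25 it had an unadjusted p below 0.05 in some comparison. For these 3 genes, chosen after their values were seen, the 250 bases before a transcript start listed by RefSeq are shown. That start can lie inside the annotated gene. The sequences are RefSeq's (mouse build GRCm38.p6), written 5′ to 3′ on the gene's own strand. Capitals mark GGGAA, the core that Ikaros family proteins are known to bind, on either strand (TTCCC on the strand shown). The window of Cd27, chr6:125237028-125237277 on the minus strand, holds none. It reaches into the annotated gene, whose 5′ end is at 125237136.
Cd27: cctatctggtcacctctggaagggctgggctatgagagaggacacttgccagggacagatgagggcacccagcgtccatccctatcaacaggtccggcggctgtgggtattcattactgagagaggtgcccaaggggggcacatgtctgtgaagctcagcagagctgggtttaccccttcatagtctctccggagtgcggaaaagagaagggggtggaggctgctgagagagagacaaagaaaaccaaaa

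The Cd27 signals were 10.66, 10.36 and 10.56 on the Ikzf2-/- arrays and 10.69, 10.79 and 10.80 on WT 4 to 6. All 3 Ikzf2-/- arrays lay below all 3 WT arrays, as Ikzf2-/- arrays did for 5.39% of tested genes. The means were 10.53 ± 0.15 and 10.76 ± 0.06 (SD, n = 3 each), a change of -0.24 (SE 0.09) short of the threshold (limma unadjusted p = 0.0223, adjusted p = 0.220). Ikzf2-/- 2 was the lowest array, and the change was -0.15 without it and -0.12 with array weights. In run 1 Cd27 had 10.71, 10.49 and 10.67 on the dKO arrays, 10.72, 10.72 and 10.80 on the Ikzf4-/- arrays and 10.76, 10.80 and 10.64 on WT 1 to 3. The dKO arrays lay below all Ikzf4-/- arrays, which holds for 4.17% of tested genes, by a mean of -0.12 (SE 0.09, adjusted p = 1), and overlapped WT.

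The other 3 members carry a death domain: Fas, the receptor of Fas ligand that triggers apoptosis; Tnfrsf25, the gene of DR3, which drives Treg expansion when engaged by TL1A; and Tnfrsf1a, the gene of TNFR1. The upstream window of Fas, chr19:34290409-34290658 on the plus strand, holds GGGAA at 2 places. Its end reaches into the annotated gene, which starts at 34290647.
Fas: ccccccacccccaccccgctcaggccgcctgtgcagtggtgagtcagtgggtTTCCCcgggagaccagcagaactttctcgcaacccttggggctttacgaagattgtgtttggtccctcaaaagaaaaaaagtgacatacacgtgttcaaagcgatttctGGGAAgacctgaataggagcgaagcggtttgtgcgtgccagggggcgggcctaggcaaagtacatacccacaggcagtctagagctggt

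Fas was the member with the tightest Ikzf2-/- arrays. Its signals were 8.13, 8.13 and 8.08 there and 8.33, 8.27 and 8.40 on WT 4 to 6, so the groups did not overlap. The means were 8.11 ± 0.03 and 8.33 ± 0.07 (SD, n = 3 each), a change of -0.22 (SE 0.08) short of the threshold (limma unadjusted p = 0.0216, adjusted p = 0.216). It was -0.23 without Ikzf2-/- 2, -0.20 without Ikzf2-/- 3 and -0.17 when all arrays were set to the same median, so it did not rest on 1 Ikzf2-/- array. Other genes moved with the Ikzf2-/- group in which Fas and Cd27 were lower. The mean of the 19 cell cycle genes tested was 6.82, 6.44 and 7.50 on Ikzf2-/- 1 to 3, against 6.39, 6.28 and 6.04 on WT 4 to 6. All 19 had positive changes (median 0.81), of which 0 were called and 11 had an unadjusted p below 0.05 in limma. Of all tested genes 54.9% had positive changes and 11% were higher at that level, shares that also apply to the neutrophil markers below. The mean of the 9 neutrophil markers was 6.22, 5.78 and 8.14 on Ikzf2-/- 1 to 3, against 5.28, 4.90 and 5.40 on WT 4 to 6. The 7 of these that were tested had positive changes (median 1.88), of which 0 were called and 5 had an unadjusted p below 0.05 in limma. Mpo, 1 of these genes, passed the filter on dim genes only through the Ikzf2-/- mean (5.32, against 4.31 on WT 4 to 6). Ltf exceeded the filter on 1 array. For such genes the filter favoured a positive change, so the counts are a description only. The part of either list in the values of Fas and Cd27 was not tested, and with the B cell marker mean as a covariate the changes were -0.19 for Fas and -0.27 for Cd27. In run 1 the signals were 8.62, 8.41 and 8.41 on the dKO arrays, 8.78, 8.70 and 8.62 on the Ikzf4-/- arrays and 8.62, 8.80 and 8.62 on WT 1 to 3. The dKO arrays 2 and 3 lay below all the others of the run, while dKO 1 overlapped both groups. The change was -0.20 in dKO against WT (SE 0.08, unadjusted p = 0.0332, adjusted p = 1) and -0.22 against Ikzf4-/- (SE 0.08, unadjusted p = 0.0202, adjusted p = 1), and 0.02 in Ikzf4-/- against WT. The change in dKO minus that in Ikzf2-/- was 0.02 (SE 0.12, adjusted p = 0.990), with a 95% interval from -0.24 to 0.28.

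The window of Tnfrsf25, chr4:152115684-152115933 on the plus strand, is 1 of 2 that RefSeq lists for the gene, the one nearest its start. This window lies wholly inside the annotated gene, which starts at 152115528, so its matches are downstream of that start. The window holds GGGAA at 1 place, overlapping the only match of the 9 windows to the NF-kappaB motif (GGG, any 2 bases and then TTTCC, on either strand).
Tnfrsf25: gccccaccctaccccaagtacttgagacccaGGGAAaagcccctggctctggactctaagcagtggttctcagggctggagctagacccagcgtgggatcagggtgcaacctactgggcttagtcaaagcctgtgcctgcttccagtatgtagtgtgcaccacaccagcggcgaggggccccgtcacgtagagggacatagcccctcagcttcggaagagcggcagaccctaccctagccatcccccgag

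Tnfrsf25 had 7.89, 7.43 and 7.58 on the dKO arrays, 7.93, 7.97 and 8.03 on the Ikzf4-/- arrays and 7.96, 7.96 and 7.88 on WT 1 to 3. The dKO arrays lay below all Ikzf4-/- arrays, and dKO 2 and 3 lay well below every WT array, while dKO 1 fell within the WT range. The dKO mean was 7.63 ± 0.23, against 7.98 ± 0.05 in Ikzf4-/- and 7.93 ± 0.04 in WT (SD, n = 3 each). The change was -0.34 against Ikzf4-/- (SE 0.11, limma unadjusted p = 0.00756, adjusted p = 1) and -0.30 against WT (SE 0.11, unadjusted p = 0.0160, adjusted p = 0.901). Against WT it ranged from -0.20 without dKO 2 to -0.43 without dKO 1. The 3 dKO arrays also differed elsewhere: the mean of 19 cell cycle genes was 6.62, 7.46 and 7.15 on dKO 1 to 3, against 6.32, 6.91 and 6.41 on the Ikzf4-/- arrays and 6.75, 6.89 and 6.51 on WT 1 to 3. The Y-linked gene Eif2s3y was at 3.09, 7.94 and 8.81 on dKO 1 to 3, and in the other groups of run 1 only Ikzf4-/- 3 (8.64) and WT 3 (8.17) exceeded 3.09. With the Eif2s3y signal as a covariate the change of Tnfrsf25 against WT was -0.26 (adjusted p = 0.941) and that of Fas -0.15 (adjusted p = 1), while the part of the cell cycle genes was not tested. In run 2 the groups overlapped, with 7.24, 7.13 and 6.97 in Ikzf2-/- against 7.11, 7.13 and 7.30 on WT 4 to 6 (-0.07, SE 0.11), and the change in dKO minus that in Ikzf2-/- was -0.24 (SE 0.16, adjusted p = 0.786).

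Tnfrsf1a had 7.74, 7.59 and 7.42 on the dKO arrays, 7.80, 7.66 and 7.87 on the Ikzf4-/- arrays and 7.86, 7.74 and 7.41 on WT 1 to 3. In run 2 it had 6.50, 6.18 and 6.55 on the Ikzf2-/- arrays and 6.45, 6.56 and 6.38 on WT 4 to 6. Groups overlapped in every comparison. Set against WT, Ikzf2-/- gave -0.05, Ikzf4-/- 0.11 and dKO -0.08 (SE 0.13 each), and dKO against Ikzf4-/- gave -0.19.

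**Figure D2:**
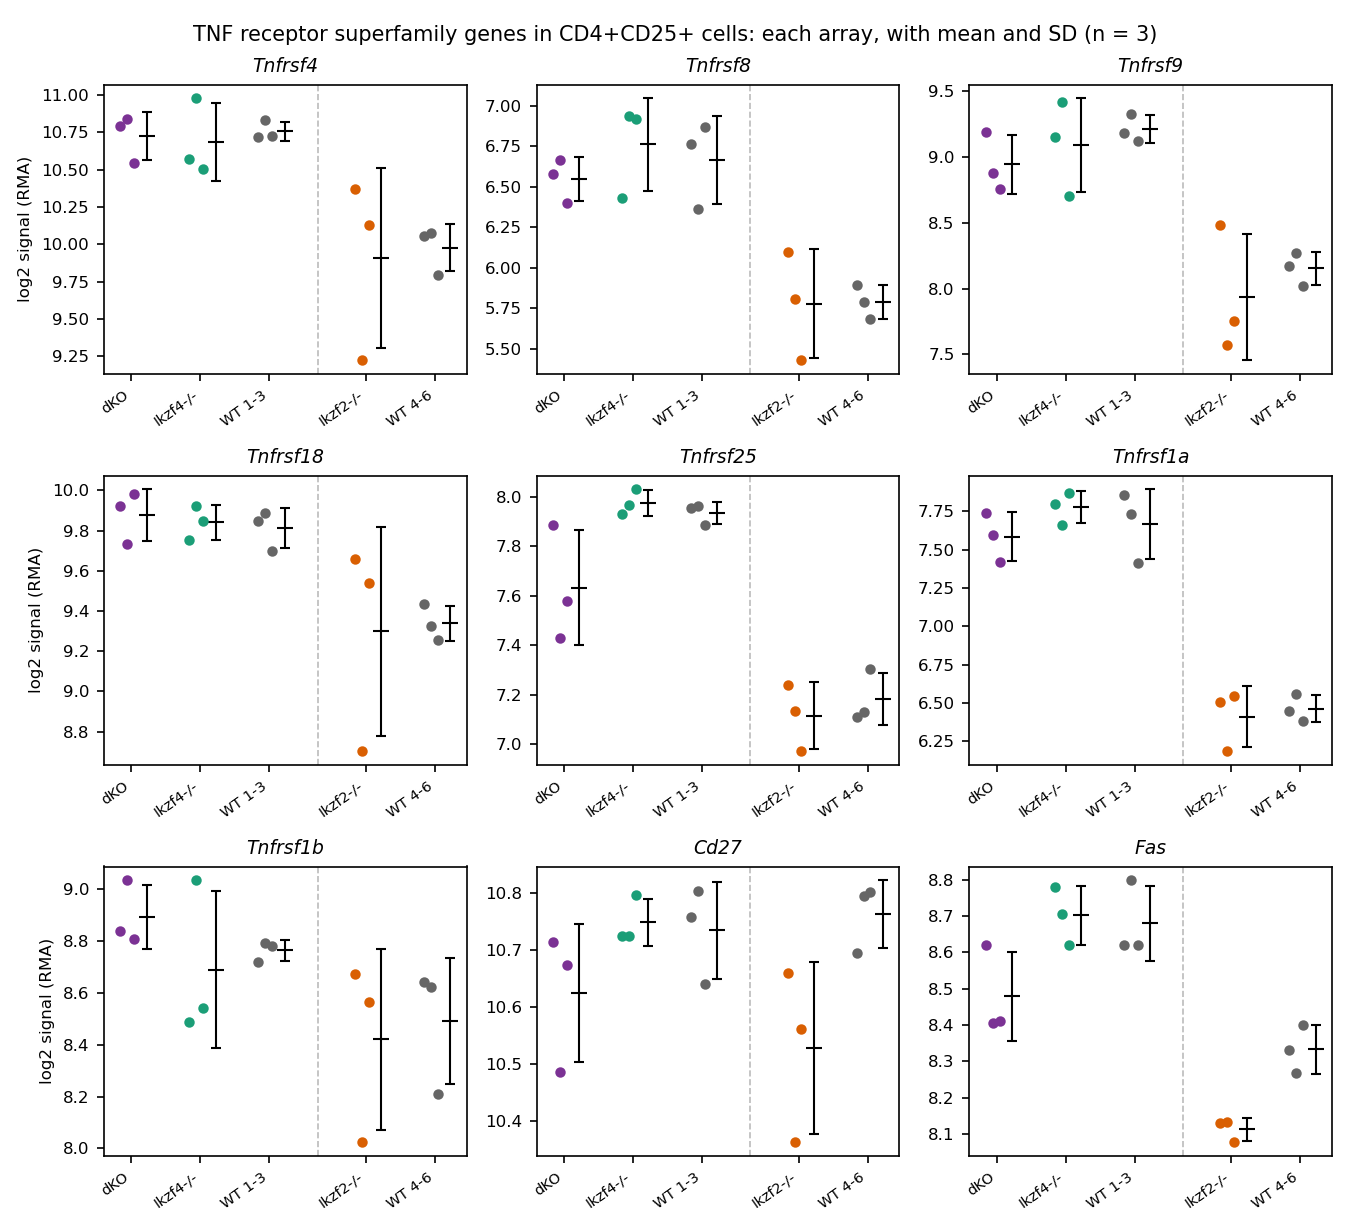
Log2 signal (RMA, vertical axis) of each receptor gene on every array (points), with the mean and SD of each group (bars, n = 3), in run 1 left of the dashed line and in run 2 right of it. The Fas points of Ikzf2-/- lie below those of WT 4 to 6, and the Tnfrsf25 points of dKO below those of Ikzf4-/-. Each panel has its own scale.

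The 9 genes leaned the same way only in part. In Ikzf2-/- against WT 9 of 9 changes were negative, with a median of -0.07, where 45.1% of all tested genes were negative and the median of all was 0.02. That count rested on single arrays: 5 of 9 were negative without Ikzf2-/- 2, 7 of 9 without Ikzf2-/- 3 or at equal array medians, and 2 of 9 with array weights, where the median was 0.07. The median was -0.22, -0.02 and -0.14 without Ikzf2-/- 1, 2 and 3 in turn, -0.04 without WT 5 and -0.16 without WT 6, and 6 of 9 were negative without WT 4. In Ikzf4-/- against WT 3 of 9 were negative (median 0.02, with 46.8% of all genes negative), but 7 of 9 without WT 3 (median -0.03) and 5 of 9 with array weights (median -0.02). The median there was 0.05 without WT 2 and 0.01 without Ikzf4-/- 2. In dKO 7 of 9 were negative against WT (median -0.11, 47.9% of all genes) and 6 of 9 against Ikzf4-/- (median -0.15, 50.5% of all genes). The median against WT was -0.04 without dKO 3 and -0.07 without WT 1, and that against Ikzf4-/- was -0.23 without dKO 1. The 2 dKO comparisons share the dKO arrays, and the comparisons of Ikzf4-/- and dKO with WT share WT 1 to 3.

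Most of the spread of these genes in Ikzf2-/- lay between its 3 arrays. The median SD of the members was 0.337 in Ikzf2-/-, against 0.101 to 0.134 in the other 4 groups of arrays, while over all tested genes the median SD was 0.194 in Ikzf2-/- and 0.0922 to 0.110 elsewhere. The mean of the 9 genes was 8.42, 7.90 and 8.18 on Ikzf2-/- 1 to 3, against 8.31, 8.31 and 8.21 on WT 4 to 6. Ikzf2-/- 1 was thus the highest array of the run and Ikzf2-/- 2 the lowest. In run 1 the means were 8.92, 8.79 and 8.73 on the dKO arrays, 8.85, 9.04 and 8.87 on the Ikzf4-/- arrays and 8.94, 8.94 and 8.86 on WT 1 to 3. The part of the lower Treg marker mean of Ikzf2-/- 2 in its receptor values was not tested.

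**Figure D3:**
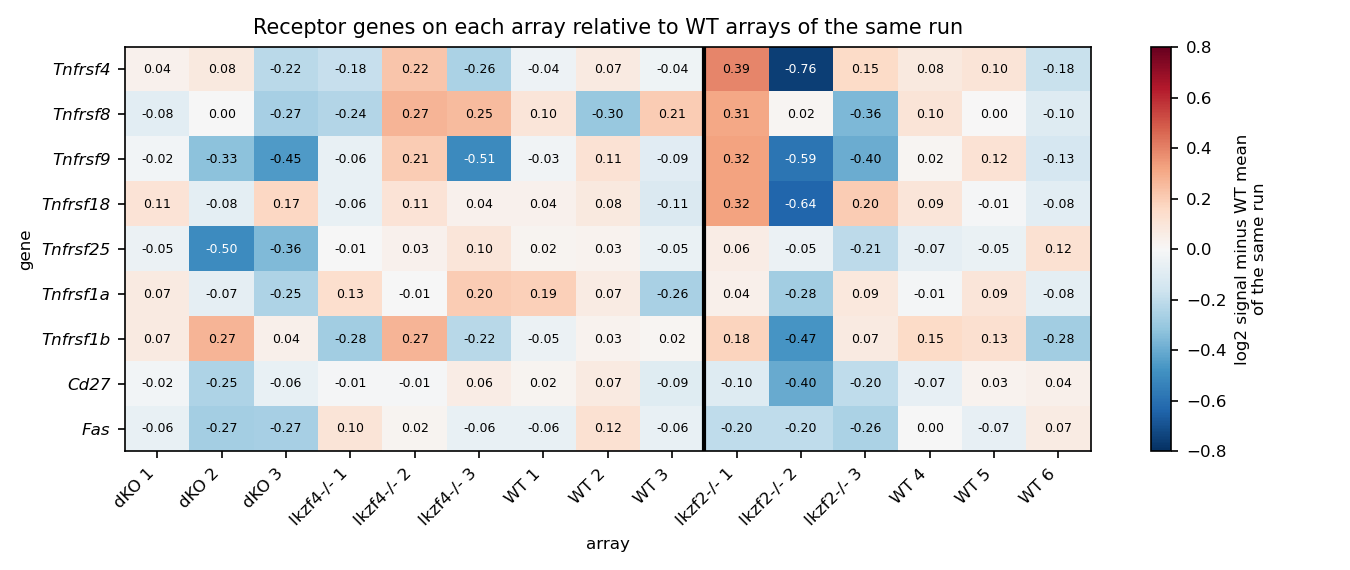
Log2 signal of each receptor gene on each array minus the mean of the WT arrays of its run (colour and printed value), with run 1 left of the black line and run 2 right of it. Ikzf2-/- 2 stands out with values of -0.76 for Tnfrsf4, -0.64 for Tnfrsf18 and -0.59 for Tnfrsf9. Fas is below 0 on all 3 Ikzf2-/- and all 3 dKO arrays, but dKO 1 (-0.06) has the same value as WT 1 and WT 3.

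Which genes moved with each receptor from array to array was described by Pearson's r over the 15 arrays after subtracting each run's mean. The points share group, array quality and cell mixture, and the 2 genes of highest r were picked from 10834, so r serves as a description. Tnfrsf4 followed Il2rb, a chain of the interleukin-2 receptor (r = 0.947, and 0.880 without Ikzf2-/- 2), and Zfp36l1 (0.946). Tnfrsf1b followed Ccr8, a chemokine receptor of activated Treg cells (0.939, and 0.941 over the 9 arrays of run 1), and Ppfibp1 (0.907). Tnfrsf1a followed Fadd, the adaptor of death domain receptors (0.884), and Pex19 (0.856). For Tnfrsf25 they were the histone deacetylase gene Hdac9 (0.855) and Ly6m (0.855), for Fas Sidt1 (0.893) and Smc6 (0.872), and for Cd27 Gon4l (0.938) and Arid4a (0.938). Tnfrsf18 followed Ppil2 (0.952) and Fam53b (0.951), Tnfrsf9 followed Riok1 (0.905) and Nhlrc3 (0.887), and Tnfrsf8 followed Lrfn1 (0.745) and Snhg5 (0.740). Between the members, the adjacent genes Tnfrsf4 and Tnfrsf18 had r = 0.832 over all arrays but 0.0530 within run 1, whereas Tnfrsf4 and Tnfrsf1b had 0.870 and 0.812. Tnfrsf25 with Cd27 had 0.607 over all arrays and 0.864 within run 1, and Tnfrsf25 with Fas had 0.752 and 0.838.

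Position and upstream sequence were shared in part. Of the members, 6 lie on chromosome 4, 2 (Tnfrsf1a and Cd27) on chromosome 6 and Fas on chromosome 19. All 9 had a RefSeq window, and 7 of the 9 hold GGGAA on either strand, against 56.2% of all 32851 windows of 250 bases. The longer TGGGAA, which contains GGGAA, was in 1 of 9 (Fas), against 21.6% of windows. The NF-kappaB motif was in 1 of 9 (Tnfrsf25), against 1.41%, and that match overlaps a GGGAA match in part. Tnfrsf1b held the most GGGAA matches, 4, and Tnfrsf18 and Cd27 held 0. The Tnfrsf25 window lies inside the annotated gene, and those of Tnfrsf4, Cd27 and Fas reach into theirs. A match describes letters in the window and is no binding site.

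Ligands of the 9 receptors included the single pathway gene that passed. Of 9 ligand genes 5 passed the filter on dim genes, while those of OX40 ligand, GITR ligand, TL1A and CD70 (Tnfsf4, Tnfsf18, Tnfsf15 and Cd70) were too dim to test. Tnfsf8, the gene of the CD30 ligand, had 8.94, 8.82 and 8.68 on the dKO arrays, 8.23, 8.38 and 7.96 on the Ikzf4-/- arrays and 7.77, 7.89 and 7.85 on WT 1 to 3. The 3 groups did not overlap, with Ikzf4-/- between dKO and WT. Tnfsf8 rose in dKO against WT by 0.98 (SE 0.15, limma adjusted p = 0.0399), a call that 12 of 30 alternatives kept and 18 lost, with adjusted p up to 0.225 and changes between 0.92 and 1.05. Among those that lost it were the fit with the replicate number as a block (adjusted p = 0.0538) and leaving out any 1 of the dKO or WT 1 to 3 arrays. The change was 0.36 in Ikzf4-/- against WT (SE 0.15, adjusted p = 1) and 0.62 in dKO against Ikzf4-/- (SE 0.15, adjusted p = 0.520). Tnfsf9, the gene of the 4-1BB ligand, averaged 5.59 ± 0.41 in dKO and 4.98 ± 0.14 in Ikzf4-/- (SD, n = 3 each; 0.61, adjusted p = 0.946). In Ikzf2-/- against WT no ligand was called, where 0.0646% of all tested genes were, and Tnfsf9 (0.27) and Tnf (0.22) had the smallest p.

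Other receptors of the family were tested for 11 of 19 genes. Of these 0 passed in any of the 4 comparisons, where at most 0.0646% of all tested genes did. The smallest p in Ikzf2-/- against WT belonged to Tnfrsf22, a decoy receptor gene (0.28, adjusted p = 0.230), and to Tnfrsf13c, the gene of the B cell survival receptor BAFFR (0.98, adjusted p = 0.243). Tnfrsf13c averaged 7.51 ± 0.90 on the Ikzf2-/- arrays and 6.53 ± 0.09 on WT 4 to 6 (SD, n = 3 each), and the B cell marker mean was 5.65, 4.96 and 7.39 on Ikzf2-/- 1 to 3 against 5.05 to 5.21 on those WT arrays. Its part in the value was not tested. In Ikzf4-/- against WT the smallest p were those of Tnfrsf10b, a death receptor gene (0.23), and Tnfrsf13c (-0.50). In dKO they were those of the decoy receptor gene Tnfrsf23, with 0.31 against WT and 0.48 against Ikzf4-/- (adjusted p = 0.777), and of Tnfrsf13b, the gene of the B cell receptor TACI, with -0.16 and -0.12.

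Signalling genes downstream of the receptors gave no call either. Of the TRAF adaptors and their partners 8 of 9 were tested, of the NF-kappaB subunits and inhibitors 12 of 14 and of the death domain pathway 6 of 8. Of these 0 passed in each of the 4 comparisons, where at most 0.0646% of all tested genes did. Traf1, an adaptor gene induced by NF-kappaB, had changes of -0.17 in Ikzf2-/- and 0.22 in Ikzf4-/- against WT, and -0.15 in dKO against Ikzf4-/-. Nfkbia, the gene of an inhibitor that NF-kappaB induces, had 0.19 in Ikzf2-/- against WT and -0.14 in dKO against Ikzf4-/-. Ripk3, a kinase of necroptosis, averaged 6.95 ± 0.38 on the Ikzf2-/- arrays and 6.52 ± 0.39 on WT 4 to 6 (SD, n = 3 each; 0.43, adjusted p = 0.251), and Cflar, the gene of the caspase-8 inhibitor c-FLIP, stood at 0.20 there. Bid, a target of caspase-8, had -0.16 in dKO against WT and -0.13 against Ikzf4-/-.

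**Figure D4:**
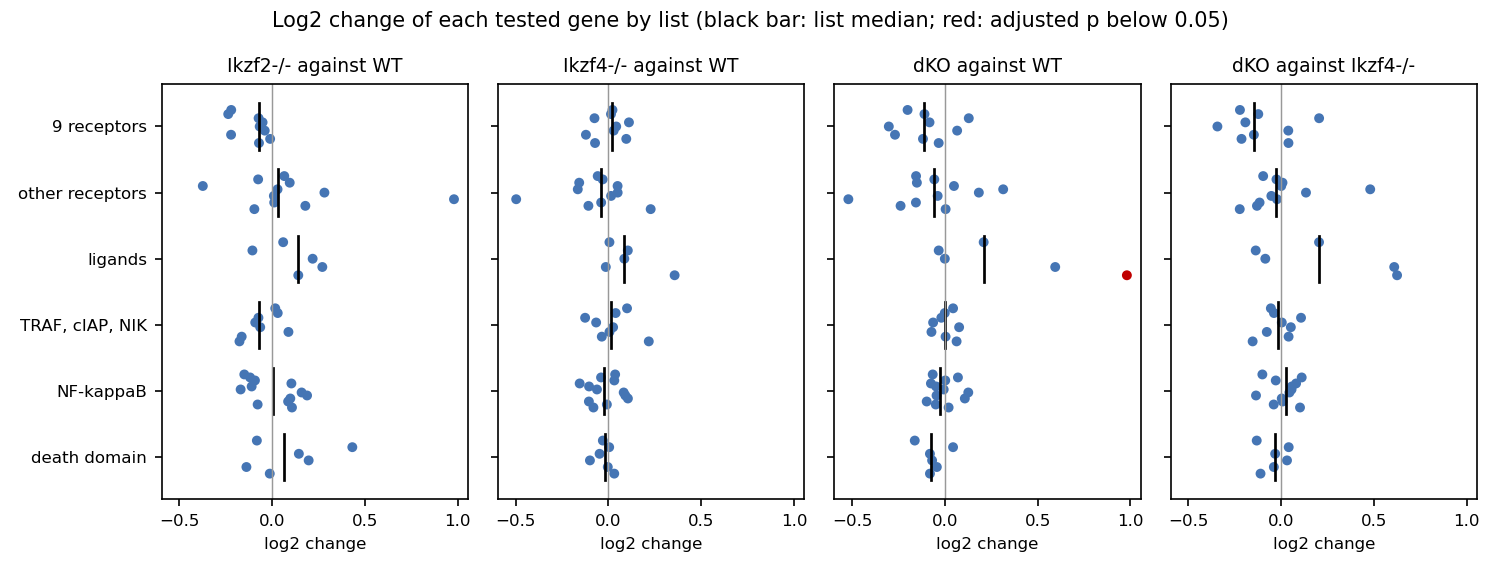
Log2 change (horizontal axis) of every tested gene of the 9 receptors, the other receptors of the family, their ligands and 3 downstream lists (points, 1 row per list), with the list median (black bar), in 1 panel for each comparison. The single red point is Tnfsf8, the only gene shown with an adjusted p below 0.05, at 0.98 in dKO against WT.

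The test of a difference between genotypes gave no member either. The change in Ikzf4-/- minus that in Ikzf2-/- was 0.25 for Cd27 (SE 0.13, limma adjusted p = 0.589) and 0.24 for Fas (SE 0.12, adjusted p = 0.569), the widest gaps of that comparison in relation to their error. Their 95% intervals ran from -0.03 to 0.53 and from -0.02 to 0.50. For dKO minus Ikzf2-/- the values ran from -0.24 (Tnfrsf25) to 0.20 (Tnfrsf1b). Of all tested genes 0% were called in either test. At an unadjusted p below 0.05, 0 of 9 members stood out in either, where 2.34% of all genes were higher and 4.94% lower for dKO minus Ikzf2-/-, and 3.08% and 6.06% for Ikzf4-/- minus Ikzf2-/-.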

How the data were processed

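The deposited table holds log2 signals for 35556 probe sets on 15 arrays, which the authors made with Affymetrix Expression Console 1.3.1 and RMA, per the submitters' processing notes. RMA corrects background, quantile-normalizes arrays handled together and summarises probes, and it shrinks differences at low signal. The labels' protocols state that a NuGEN kit amplified 15 ng of RNA for each array before biotin labelling. The scanner signals were not used here, and the number of arrays limits the precision.

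Gene names came from the platform's annotation, brought up to date by Entrez identifier: 21789 probe sets had 1 symbol, 1621 several and 12146 were unnamed here. Of several probe sets of a gene the brightest stood for it. Testing required that the mean of any of the 4 genotypes exceeded log2 4.96, the median of all probe set means (10834 genes). A first fit had used the 5 groups of arrays in this filter (10964 genes) and made the same number of calls in each comparison, with no member among them, and the grouping by genotype was set after seeing it.

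One limma 3.58.1 fit in R 4.3.3 (lmFit, eBayes) covered all 15 arrays with 5 group means, WT of each run apart (residual df 10, prior df 3.73). Benjamini-Hochberg adjustment ran over all tested genes, with a threshold of 0.05. The procedure was tested on simulated data with independent arrays and 1 spread per gene for all groups. Unequal spread between groups and pairing were not covered by that test. The 9 genes, the lists of other receptors, ligands, signalling and marker genes (139 genes in all) and the tests were chosen with earlier results of these data known. The genes named from a list were those that passed, up to 4, or else the 2 of smallest p. The 4 comparisons and the differences between changes are described in the text. Of the 30 alternative settings, some left out each array in turn or both arrays highest in B cell markers. Others changed the filter (none, stricter, by the 5 groups) or the WT arrays (pooled, other run). The fit was also limited to the groups compared or to run 1. Further settings normalized again by quantiles, set equal array medians, averaged a gene's probe sets or weighted arrays. The rest added the replicate block, the B cell marker mean or the Eif2s3y signal.

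Replicate numbers are shared by the groups of run 1. The correlation of same-numbered arrays, each as its deviation from the mean of its group, was 0.135, 0.218 and 0.306 between Ikzf4-/- and WT, 0.430, 0.197 and 0.267 between dKO and Ikzf4-/-, and 0.0707, 0.0456 and 0.172 between dKO and WT. In every case but dKO 1 with WT, the array of the same number was the closest match. Pairing by number was therefore read as possible in each of these comparisons, on the values alone. The main fit does not use this pairing, so its SEs, intervals and p-values treat the arrays as unpaired. A fit with the replicate number as a block is reported among the alternatives. Upstream windows are RefSeq's (GRCm38.p6). No source used here names the build of the array design.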

Additional observations from a re-analysis of the deposited data

Results flagged for a closer look

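Tnfrsf1b had a log2 signal of 8.21 on WT 6, apart from the other WT arrays, which lay between 8.62 and 8.79. The gap to the nearest array took 0.709 of the range of the 6 WT arrays, above Dixon's 95% critical value for 6 arrays. Chance alone would mark about 1 in 20 such groups if their arrays shared 1 level, and 9 were examined. The 6 arrays span both runs, which were normalized apart, so neither the critical value nor that rate need hold here.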

How the results depend on the processing

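Across 30 alternative settings the 9 receptors gave 1557 values over the 4 comparisons and both differences between changes. Of these, 1514 stayed on the same side of the threshold, though 133 of them took the opposite sign. The settings that made calls used WT arrays of another run. With the WT arrays of the other run, 7 members were called in Ikzf2-/- against WT, 7 in Ikzf4-/- against WT and 6 in dKO against WT, and 8 and 7 in the differences of dKO and of Ikzf4-/- from Ikzf2-/-. In the comparisons with WT, signs turned without a call for Fas in dKO (0.15) and for Tnfrsf1b (0.20) and Cd27 (-0.02) in Ikzf4-/-. Among the members called, signs turned for Tnfrsf4 (0.71) and Tnfrsf9 (0.94) in Ikzf4-/-, and in dKO for Tnfrsf4 (0.75), Tnfrsf8 (0.76), Tnfrsf9 (0.79), Tnfrsf25 (0.45) and Tnfrsf1a (1.12). They also turned in the dKO difference for Tnfrsf8 (1.65), Tnfrsf9 (2.07), Tnfrsf25 (1.27) and Tnfrsf1a (2.38), and in the Ikzf4-/- difference for Tnfrsf4 (1.56). With all 6 WT arrays pooled the differences had 3 and 5 members called, with the sign turned for Tnfrsf9 (1.01) and Tnfrsf1a (1.17) in that of dKO. WT 4 to 6 minus WT 1 to 3 was -0.39 in the median over all tested genes, and for the members it ran from -1.21 (Tnfrsf1a) to 0.03 (Cd27), so these calls carry the difference between the runs. Under the other 28 settings, which include leaving out each array, 0 members were called. A fit with a replicate block, on the arrays of run 1, called 0 members in each of its 3 comparisons. The smallest limma adjusted p of a member was 0.599 in dKO against Ikzf4-/-, 0.964 in Ikzf4-/- against WT and 0.525 in dKO against WT. The block changed no member's call. Over all genes, limma called 7, 0, 7 and 3 in the 4 comparisons, and under the alternatives from 0 to 6493, 7170, 7205 and 21, the first 3 of these maxima with the WT arrays of the other run and the last with array weights.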
